A study of Mus musculus with 18 samples.

Results

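The immediate early genes Fos, Fosb, Jun, Junb, Jund, Egr1, Ier2, Ier3 and Myc, together with the stress-induced gene Atf3, were followed through the liver RNA-seq libraries of 18 mice. The 10 genes were chosen by symbol, and each of them was found in both count tables, among 38924 gene identifiers in the male table and 23337 gene symbols in the female table. Values are CPM, a gene's counts relative to the TMM-scaled size of its library, given mouse by mouse or as a group's mean ± SD with n = 3. Scaling was done over the 6 libraries of the male table and, separately, over the 12 of the female table.

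The mice formed 6 groups of 3. Each was 8 weeks old at collection and ate fat-rich chow (45% of the energy as fat). C57BL6J males given low-dose penicillin (LDP) from birth (mice 8, 10 and 11) were set against males with no antibiotic (5, 6 and 7), and C57BL6J LDP females (39, 52 and 54) against control females (29, 30 and 32); these mice were weaned at week 4 and changed to the fat diet at week 6. Swiss Webster females born germ-free were colonised at week 3 with the gut microbiota of LDP mice (recipients 2, 5 and 8) or of control mice (recipients 1, 3 and 7) and had no antibiotic themselves. The recipients therefore differ from the first experiment in strain and in early life without microbes as well as in treatment. Cage, litter and donor of each mouse are not given, so p-values measure the spread between these mice only. Libraries held 70336366 to 74418889 counts in males and 17937005 to 28646168 in females. The 9 hepatocyte markers, albumin among them, summed to 103976 to 111675 CPM in LDP males against 89356 to 100369 in control males, to 157871 to 164672 against 156483 to 170761 in females, and to 167658 to 196545 against 127508 to 165143 in recipients. The sums did not overlap between the groups in males and in recipients, as held for 10.5% and 11.8% of all tested genes. In males 1 of the 9 markers was higher at an unadjusted p under 0.05, and 0 were in recipients. Of all genes, 5.23% in males and 5.11% in recipients lay there, in either direction. Their log2 differences were 4 positive and 5 negative in males (median -0.04), and 5 positive and 4 negative in recipients (median 0.01). The markers thus did not move as 1 set, and the part of these sums in the members' values was not tested.

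Immediate early genes are transcribed within minutes of a stimulus, without new protein synthesis, and their messages are short-lived. FOS and FOSB pair with JUN, JUNB or JUND to form the AP-1 transcription factor, and ATF3, a related leucine zipper protein, binds cyclic AMP response elements (CRE) and mostly represses its targets. EGR1 is a zinc finger factor, MYC drives growth and ribosome production, and IER2 and IER3 are small early response proteins. In liver this group is known to respond to partial hepatectomy, cytokines and feeding. In whole liver, more cells of a type and more RNA per cell cannot be told apart.

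The start regions of Atf3, Fosb and Fos are shown because Atf3 had the largest difference among the members in LDP females, Fosb accompanied it there, and Fos and Fosb varied together among the males. In GRCm38, Atf3 spans chr1:191170296-191218039 on the minus strand with up to 5 exons and overlaps Gm24748 on the other strand, Fosb spans chr7:19302696-19310051 on the minus strand with up to 5 exons, and Fos chr12:85473890-85477273 on the plus strand with up to 4 exons. The sequences run 5′ to 3′ through the 300 bases around the RefSeq transcription start (GRCm38.p6), at chr1:191183284-191183583 (minus), chr7:19309996-19310295 (minus) and chr12:85473640-85473939 (plus). The Atf3 start used by RefSeq lies inside the annotated gene span. Capitals mark matches, on either strand, to the TGACG core of a CRE, to TATAAA, to the EGR motif GCGNGGGCG and to the NF-Y motif CCAAT.
Atf3: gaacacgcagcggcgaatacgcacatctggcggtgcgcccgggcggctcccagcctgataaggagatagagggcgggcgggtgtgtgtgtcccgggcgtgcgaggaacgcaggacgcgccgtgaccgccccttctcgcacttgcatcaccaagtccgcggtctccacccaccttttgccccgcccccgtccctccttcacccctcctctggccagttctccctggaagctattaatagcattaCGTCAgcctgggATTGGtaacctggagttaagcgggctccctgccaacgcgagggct
Fosb: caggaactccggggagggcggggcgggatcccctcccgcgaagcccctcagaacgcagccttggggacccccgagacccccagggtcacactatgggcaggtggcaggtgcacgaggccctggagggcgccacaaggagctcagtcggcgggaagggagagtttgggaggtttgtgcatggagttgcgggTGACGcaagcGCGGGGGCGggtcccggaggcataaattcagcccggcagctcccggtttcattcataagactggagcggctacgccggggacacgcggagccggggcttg
Fos: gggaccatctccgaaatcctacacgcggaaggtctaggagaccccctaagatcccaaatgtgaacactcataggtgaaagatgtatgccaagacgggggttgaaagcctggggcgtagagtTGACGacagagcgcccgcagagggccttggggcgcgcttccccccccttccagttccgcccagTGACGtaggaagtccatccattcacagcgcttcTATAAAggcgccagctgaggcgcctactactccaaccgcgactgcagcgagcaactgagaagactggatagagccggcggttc

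The CRE core stands 7 bases before the start of Atf3 on the opposite strand, 60 bases before that of Fosb, and 129 and 66 bases before that of Fos. Fosb also has an EGR match 50 bases before its start, Fos a TATA match 33 bases before, and Atf3 an NF-Y match just downstream of its start. RefSeq start regions of 7 members were searched (also Jun, Junb, Jund and Ier3). Egr1, Ier2 and Myc were not among them, so the motif counts do not cover these genes. The start region of Jund (chr8:70697489-70697788) ends upstream of the annotated gene, so it need not hold the promoter in use. The CRE core was in 4 of these 7, which adds Junb, and in 20.8% of 32851 promoters of this length. The TATA motif was in 2 of 7 (13.6% of all promoters), the EGR motif in 1 of 7 (5.55%) and the NF-Y motif in 4 of 7 (37.4%). The full CRE TGACGTCA (1.79% of all promoters), the AP-1 motif TGANTCA (7.81%), the E-box CACGTG bound by MYC (7.15%) and the CArG box (1.63%) were in 0 of these 7 windows. These matches describe letters and show no binding.

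**Figure D1:**
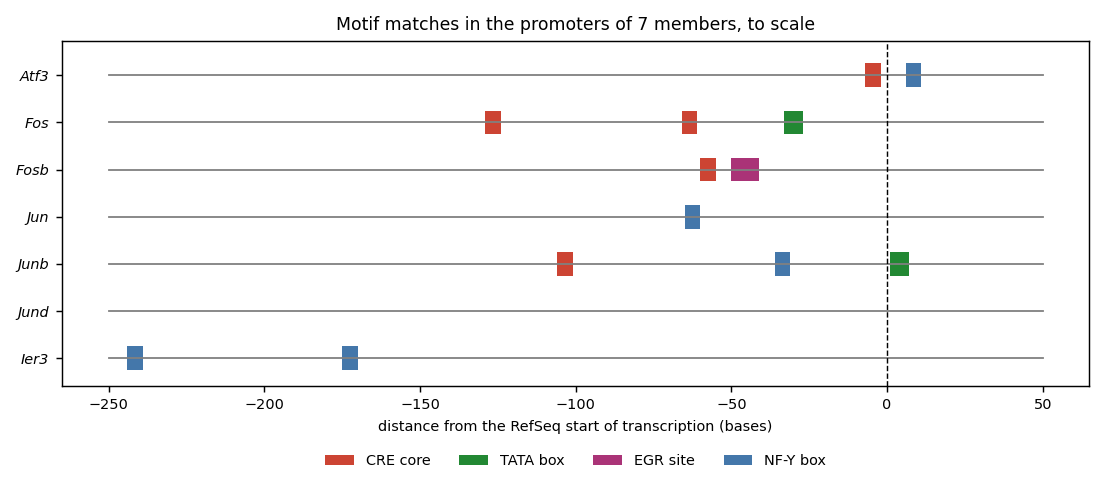
Motif matches in the RefSeq start regions of 7 members, drawn to scale against the distance from the transcription start in bases; each coloured block is 1 match. The CRE core appears in Atf3, Fos (at 2 places), Fosb and Junb, and the window of Jund, which lies upstream of the annotated gene, holds no match to the 4 motifs drawn.

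Atf3 had a higher mean in LDP than in control females, with 3 of 3 treated mice above every control. Its mean was lower in LDP than in control males, and recipients of either microbiota had 1.33 CPM. In control females 29, 30 and 32 it stood at 1.005, 0.74 and 0.64 CPM, and in LDP females 39, 52 and 54 at 3.41, 1.37 and 3.24. LDP female 52 was thus the mouse nearest to the controls. The mean was 2.67 ± 1.13 against 0.80 ± 0.19 CPM (SD, n = 3 each), a 3.38-fold difference or 1.75 on the log2 scale (SE 0.38). By edgeR's quasi-likelihood test the unadjusted p was 0.0013 and the adjusted p 0.924, so Atf3 did not pass over the 12914 genes tested, whereas DESeq2 gave an adjusted p of 0.0349. These are low counts, from 14 to 18 in controls and from 32 to 87 in LDP females. Exact 95% Poisson intervals, which cover counting error only, ran from 0.94 to 1.93 CPM in LDP female 52 and from 0.60 to 1.59 in control female 29, and so overlapped. With 1 of the 6 females left out in turn, DESeq2 called Atf3 in 1 of 6 subsets, that without LDP female 52, and gave no adjusted p without LDP female 39. The log2 change was between 1.53 and 2.07 in these subsets.

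In males, Atf3 stood at 0.96, 1.15 and 1.65 CPM in controls 5, 6 and 7 and at 0.60, 0.998 and 0.46 in LDP males 8, 10 and 11. LDP male 10 lay inside the control range and the other LDP males below it. The mean was 0.69 ± 0.28 against 1.25 ± 0.36 CPM, a log2 difference of -0.86 (SE 0.33; edgeR unadjusted p 0.0276, adjusted p 0.920). The difference was -1.24 without LDP male 10. In recipients, Atf3 stood at 1.32, 1.37 and 1.31 CPM with LDP microbiota and at 0.91, 1.30 and 1.77 with control microbiota. The LDP-microbiota mice lay within the range of the others, and the log2 difference was -0.01 (SE 0.30; edgeR adjusted p 0.996). Differences larger than this error could also have gone undetected here. In females a log2 difference of 1.75 for Atf3 still had an edgeR adjusted p of 0.924.

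**Figure D2:**
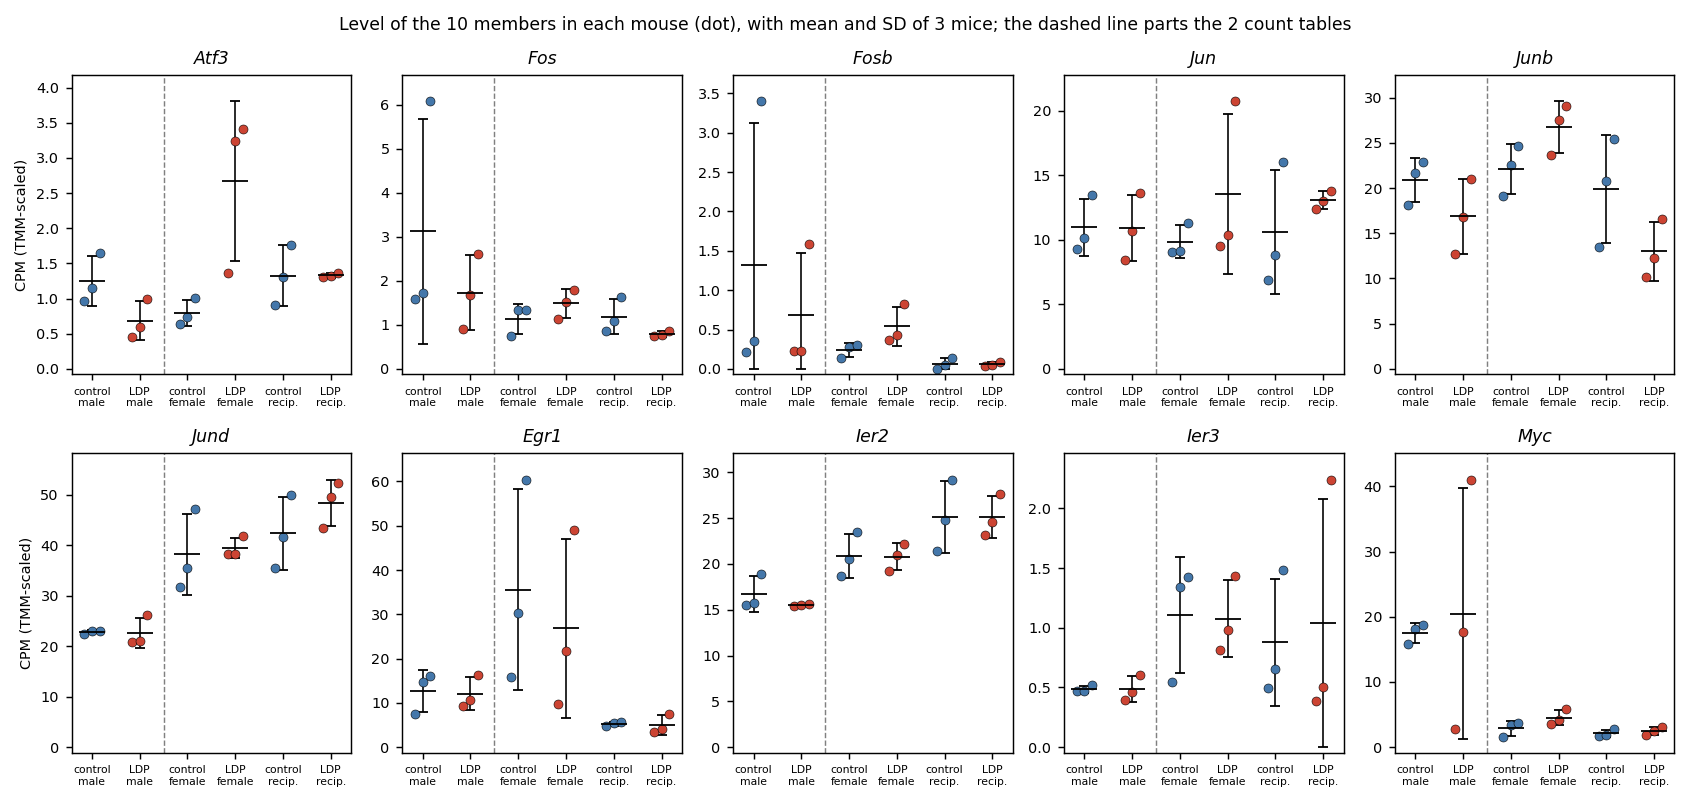
CPM of each member in each of the 18 mice (dots, blue for control and red for LDP groups), with the mean and SD of 3 mice as a bar drawn no lower than 0; the dashed line separates the male from the female table. The 3 LDP females lie above the 3 control females for Atf3 and Fosb, and Myc in LDP males spans 2.82 to 41.0 CPM.

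Fosb, a partner of the JUN proteins, was the other member whose female groups did not overlap. It stood at 0.28, 0.30 and 0.14 CPM in control females 29, 30 and 32 and at 0.82, 0.43 and 0.37 in LDP females 39, 52 and 54. These values rest on 3 to 6 counts against 8 to 21, so Fosb did not pass the filter on low counts. Fitted without that filter, its log2 difference was 1.20 (SE 0.50; edgeR unadjusted p 0.0316, adjusted p 0.998). The exact 95% Poisson intervals of the highest control (0.11 to 0.65 CPM) and of the lowest treated mouse (0.16 to 0.73) overlapped. In recipients Fosb had between 0 and 3 counts in every library, at or under the floor of 3 counts, and no fold is given.

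In males Fosb was high in 1 mouse of each group. Control male 7 had 3.40 CPM and the other controls 0.36 and 0.22, while LDP male 10 had 1.59 and the other LDP males 0.23 and 0.23. The group difference of -0.94 (SE 1.35; edgeR adjusted p 0.947) became 1.25 without control male 7 and -2.52 when LDP male 10 was left out. Fos, which heads the same family, followed the same mice. It stood at 1.71, 1.58 and 6.08 CPM in control males 5, 6 and 7 and at 1.68, 2.60 and 0.90 in LDP males 8, 10 and 11. Its log2 difference of -0.85 (SE 0.68; edgeR adjusted p 0.921) was 0.07 without control male 7.

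Fos was more even in the female table. It was at 1.34, 0.74 and 1.34 CPM in control females and at 1.14, 1.797 and 1.53 in LDP females, with overlap and a log2 difference of 0.38 (SE 0.30; edgeR adjusted p 0.999). In recipients Fos stood at 0.86, 0.77 and 0.75 CPM with LDP microbiota and at 0.86, 1.078 and 1.63 with control microbiota. LDP-microbiota mice 5 and 8 were below every control recipient, and mouse 2 was inside their range. The log2 difference was -0.60 (SE 0.32; edgeR unadjusted p 0.0998, adjusted p 0.846).

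Among the JUN proteins, Junb had differences of opposite sign in the 2 comparisons of females. Junb (chr8:84974484-84978718, minus strand, up to 2 exons) overlaps Prdx2 on the other strand, and since strandedness of the libraries is not given, reads of the overlap cannot be assigned. In control females 29, 30 and 32 it stood at 24.6, 19.2 and 22.5 CPM and in LDP females 39, 52 and 54 at 27.5, 23.6 and 29.1. LDP female 52 lay inside the control range, and the log2 difference was 0.28 (SE 0.12; edgeR unadjusted p 0.0465, adjusted p 0.999). In recipients Junb stood at 10.1, 12.3 and 16.5 CPM with LDP microbiota and at 13.5, 25.4 and 20.8 with control microbiota. There the log2 difference was -0.62 (SE 0.26; edgeR unadjusted p 0.0404, adjusted p 0.846), with LDP-microbiota mouse 8 inside the control range. In males Junb was at 12.8, 16.8 and 21.04 CPM with LDP and at 18.1, 22.9 and 21.7 in controls, a log2 difference of -0.31 (SE 0.18; edgeR unadjusted p 0.137).

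Jun (chr4:95049034-95052222, minus strand, 1 exon) overlaps the antisense gene Junos and is the main activating partner of FOS. It showed no group difference beyond its spread. Log2 differences were -0.00 (SE 0.20) in males, 0.46 (SE 0.30) in females and 0.29 (SE 0.28) in recipients, where the edgeR adjusted p was 0.997, 0.999 and 0.862. The female value came from LDP female 54, at 20.7 CPM beside 10.4 and 9.54 in LDP females 39 and 52 and 9.07 to 11.3 in controls. In recipients the LDP-microbiota mice were close together, at 12.4 to 13.8 CPM, inside a control range of 6.92 to 16.04. Jund (chr8:70698949-70700616, plus strand, 1 exon), a JUN protein present in resting cells, overlaps Gm11175 on the other strand, and the limit given for the reads of Junb holds for Jun, Jund and Atf3 too. Jund was the steadiest of the family. It was at 20.8 to 26.1 CPM in LDP males against 22.5 to 23.1 in controls, at 38.3 to 41.8 against 31.8 to 47.2 in females, and at 43.4 to 52.3 against 35.5 to 49.9 in recipients. Its log2 differences were -0.01 (SE 0.09), 0.05 (SE 0.14) and 0.18 (SE 0.15).

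Egr1 varied more between mice of a group than between treatments. In females it stood at 30.3, 15.9 and 60.4 CPM in controls 29, 30 and 32 and at 9.77, 21.6 and 49.0 in LDP mice 39, 52 and 54. LDP female 39, the highest of the 6 females for Atf3 and Fosb, was the lowest for Egr1. The log2 difference was -0.41 (SE 0.74; edgeR adjusted p 0.999). Its SD within groups of the female table, 0.79 on the scale of log2(CPM + 0.5), was exceeded by 0.761% of 11952 genes whose mean reached 1 CPM, and the median gene had 0.18. In males Egr1 was at 9.36 to 16.3 CPM with LDP and at 7.38 to 16.1 in controls (-0.07, SE 0.36), and in recipients at 3.34 to 7.47 and 4.83 to 5.66 (-0.09, SE 0.28).

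Ier2 was among the steadiest members in each comparison. It stood at 15.6, 15.4 and 15.6 CPM in LDP males 8, 10 and 11 beside 15.5 to 18.9 in control males, at 19.2 to 22.1 beside 18.7 to 23.4 in females, and at 23.1 to 27.7 beside 21.4 to 29.2 in recipients. The log2 differences were -0.11 (SE 0.09), -0.00 (SE 0.11) and -0.01 (SE 0.15). Ier3, linked to cell survival under stress, was low in each group. LDP recipient 8 had 2.24 CPM of Ier3, against 0.50 and 0.38 in the other LDP-microbiota mice and 0.49 to 1.49 in control recipients. Its log2 difference there was 0.29 (SE 0.72; edgeR adjusted p 0.952), beside -0.04 (SE 0.38) in females and 0.01 (SE 0.27) in males. Ier2 lies in GRCm38 at chr8:84661331-84662852 (1 exon) and Ier3 at chr17:35821684-35822923 (2 exons).

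Myc (chr15:61985391-61990374, plus strand, up to 3 exons) was spread most widely of the members among LDP males. It stood at 17.6, 41.0 and 2.82 CPM in LDP males 8, 10 and 11 and at 15.8, 18.1 and 18.7 in control males 5, 6 and 7. The controls and LDP male 8 lay close together, with LDP male 10 far above and LDP male 11 far below them. The log2 difference of 0.23 (SE 0.90; edgeR adjusted p 0.977) changed to -0.78 when LDP male 10 was left out, and to 0.74 when LDP male 11 was. In females Myc stood at 3.61, 4.11 and 5.87 CPM with LDP and at 3.41, 3.72 and 1.61 in controls. LDP females 52 and 54 exceeded every control and LDP female 39 lay inside their range, with a log2 difference of 0.65 (SE 0.31; edgeR unadjusted p 0.0710, adjusted p 0.999). In recipients it was at 1.91 to 3.12 CPM with LDP microbiota and 1.67 to 2.79 with control microbiota (0.21, SE 0.28).

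By edgeR with Benjamini-Hochberg adjustment at 0.05, the members that passed numbered 0 of 10 in males, and 0 of the 9 tested both in females and in recipients. Over all genes, 0.00648% passed in males, 0% in females and 0.00782% in recipients. At an unadjusted p under 0.05 there was 1 member in males (Atf3, lower), where 5.23% of all genes lay, 2 in females (Atf3 and Junb, higher), where 4.51% lay, and 1 in recipients (Junb, lower), where 5.11% lay. DESeq2 called 0 members in males, 1 in females (Atf3) and 0 in recipients, where it called 0.272%, 0.116% and 0.219% of all genes, and gave no adjusted p for 3, 0 and 9 members. Of the tested members, the number whose groups did not overlap was 0 of 10 in males, 1 of 9 among females (Atf3) and 0 of 9 among recipients, where 10.5%, 9.15% and 11.8% of all tested genes did not overlap. Fosb, outside the tested genes in females, did not overlap there either. The median log2 difference of the tested members was -0.09 in males, 0.28 in females and -0.01 in recipients, beside 0.00, 0.00 and -0.01 over all genes. The female median was 0.03 without LDP female 54. Genes that passed by edgeR numbered 1 in males and 66 without LDP male 11, with members at 0 in each of these fits.

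**Figure D3:**
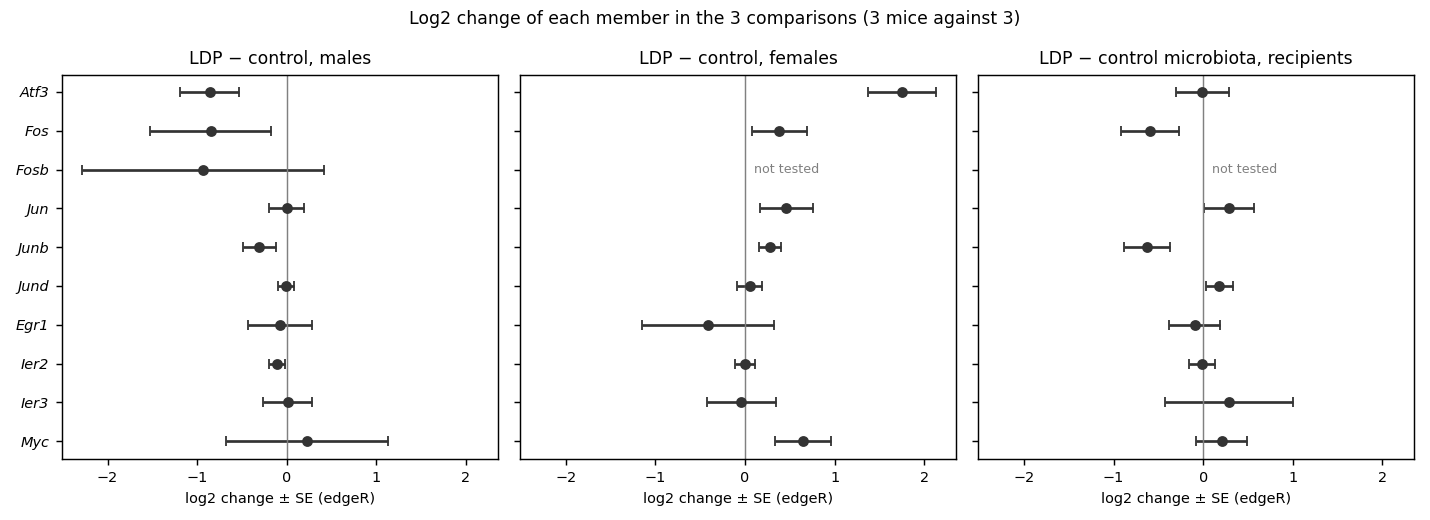
Log2 difference of each member, LDP minus control, with its SE by edgeR in males, females and recipients (3 mice against 3 in each panel). Atf3 lies at -0.86, 1.75 and -0.01, and the widest errors are those of Fosb and Myc in males.

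Whether the difference of a member varied with sex or experiment was tested directly. For Atf3, the difference in LDP males minus that in LDP females was -2.63 on the log2 scale (SE 0.55; edgeR unadjusted p 3.5e-04, adjusted p 0.9999). DESeq2 gave an adjusted p of 0.0483 and called Atf3 as 1 of 12747 genes (0.00784%), and with 1 of the 12 mice left out in turn it called Atf3 in 3 of 12 subsets. The same difference for Junb was -0.60 (SE 0.23; edgeR unadjusted p 0.0243). Members at an unadjusted p under 0.05 were these 2 of 10, in a test where 2.71% of all genes lay there and 0% passed after adjustment. Sex and count table are the same split, so they cannot be told apart here.

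Between LDP females and recipients, the difference of effects was 1.75 for Atf3 (SE 0.50; edgeR unadjusted p 0.0041), 0.89 for Junb (SE 0.31; 0.0133) and 0.97 for Fos (SE 0.45; 0.0491). Of 9 members tested these 3 had an unadjusted p under 0.05, as did 5.94% of all genes. After adjustment 0 members and 0% of genes passed by edgeR (adjusted p 0.788 for each of the 3), and DESeq2 called 0 members and 0.0903% of genes. Strain and early germ-free life differ between these experiments as well, and this test uses the same C57BL6J females as the test against males.

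Libraries that stood apart for several members were sought next. Control male 7 was the highest of the 6 males for Atf3, Fos, Fosb and Ier2, and LDP male 10 for Jun, Egr1, Ier3 and Myc, while LDP male 11 was the lowest for Atf3, Fos, Jun, Jund and Myc. In the female comparison LDP female 54 was highest for Jun, Junb, Ier3 and Myc and control female 30 lowest for Fos, Junb, Jund, Ier2 and Ier3. In recipients, control recipient 7 was highest for Atf3, Fos, Fosb and Jun, and control recipient 1 lowest for Atf3, Fosb, Jun, Jund and Ier2. Within groups of males the SD of log2(CPM + 0.5) was 1.32 for Myc, exceeded by 7 of 12056 genes, 1.13 for Fosb, exceeded by 9, and 0.77 for Fos, exceeded by 38. The level in LDP male 10 over that in LDP male 11 was 14.6 for Myc (rank 3 of 12055 genes), 6.92 for Fosb and 2.87 for Fos. The rank counts from genes higher in LDP male 10 only. These mice were the highest and lowest males for Myc, so a high rank was partly built in.

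**Figure D4:**
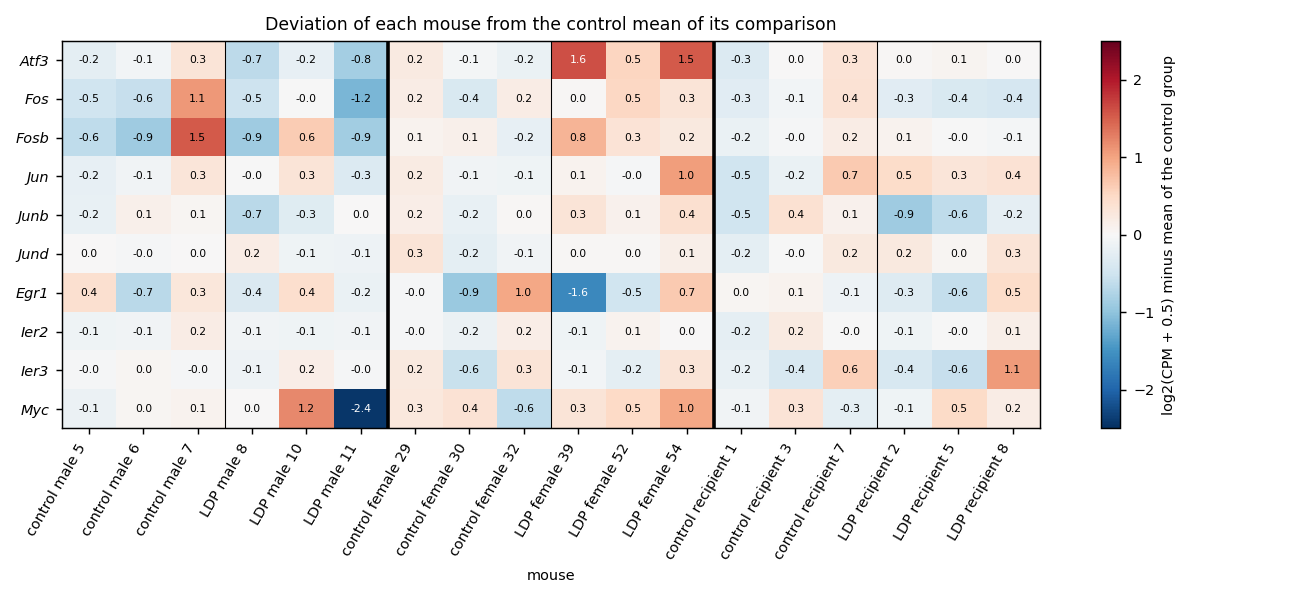
Deviation of each mouse from the mean of its control group, on the scale of log2(CPM + 0.5), for the 10 members (rows) and 18 mice (columns). Thick lines part the 3 comparisons; columns of control male 7, LDP male 11 and LDP female 54 hold several values of 1 direction.

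Markers of other liver cells moved with some of these mice. The 6 mesothelium markers (Msln, Upk3b, Lrrn4, Gpm6a, Wt1 and Krt18, the last also made by hepatocytes) had higher fitted values in LDP females for 5 of 5 tested, 3 of them at an unadjusted p under 0.05, and summed to 99.0 to 139 CPM against 78.7 to 118 in controls, with each marker counted in each of the 6 females. Krt18 was then left out, a choice made after the data were seen. Without it the sum was 21.3, 10.2 and 8.14 CPM in LDP females 39, 52 and 54 and 4.84 to 5.96 in control females. These groups did not overlap, as held for 9.15% of all tested genes. Lrrn4 by itself overlapped, at 0.47 CPM in LDP female 52 and 0.65 in control female 30. LDP female 39, the highest for Atf3 and Fosb, had the highest sum, but LDP female 54 had 3.24 CPM of Atf3 with the lowest sum of the 3. Without LDP female 39 the Atf3 difference was 1.53 (edgeR adjusted p 0.909). Of 10 stellate cell and fibroblast markers, 6 were higher at an unadjusted p under 0.05 in LDP females. Of all genes in that comparison, 4.51% lay there, in either direction. The 10 markers summed to 531 to 665 CPM against 427 to 519. Of 7 monocyte and recruited macrophage markers, 6 were tested in females and each had a positive log2 difference (median 0.37), 0 of them at an unadjusted p under 0.05, with sums of 72.9 to 86.6 CPM against 53.2 to 74.8. The part of these cells in the Atf3 and Fosb values was not tested.

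In males the 10 stellate cell and fibroblast markers summed to 507, 656 and 271 CPM in LDP males 8, 10 and 11 and to 405 to 483 in controls, so the order of the LDP males is that of Myc. The 5 cholangiocyte markers summed to 86.8 CPM in LDP male 10, 57.7 in control male 7 and 33.2 to 45.6 in the other males. Mesothelium markers without Krt18 summed to 10.2 CPM in LDP male 10, 2.37 in LDP male 11 and 2.58 to 9.57 in the other males. The 10 Kupffer cell markers summed to 453 to 495 CPM in LDP males while controls had 531 to 644. Of them, 7 were lower at an unadjusted p under 0.05, in the comparison where Atf3 was lower and 5.23% of all genes lay there in either direction. In females, where Atf3 was higher, 6 of these 10 had a positive and 4 a negative log2 difference (median 0.02). There 0 had an unadjusted p under 0.05, and the sums of 829 to 1046 CPM with LDP and 745 to 1024 in controls overlapped. The 7 monocyte and recruited macrophage markers in males had sums of 44.4 to 44.8 CPM with LDP against 48.8 to 56.2 CPM without it. These sums did not overlap, as held for 10.5% of all tested genes, and 2 of the 6 tested were lower at an unadjusted p under 0.05. In recipients the 6 pancreas markers, 2 of them at 0 in each library of the comparison (Cpa1 and Amy2a5), summed to 41.6 to 56.3 CPM with LDP microbiota and 19.7 to 34.5 with control microbiota. Only 1 of the 6 passed the filter on low counts, with a log2 difference of 0.74 (edgeR unadjusted p under 0.05), so the sums need not speak for the list. The part of these markers in the members' values was not tested.

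**Figure D5:**
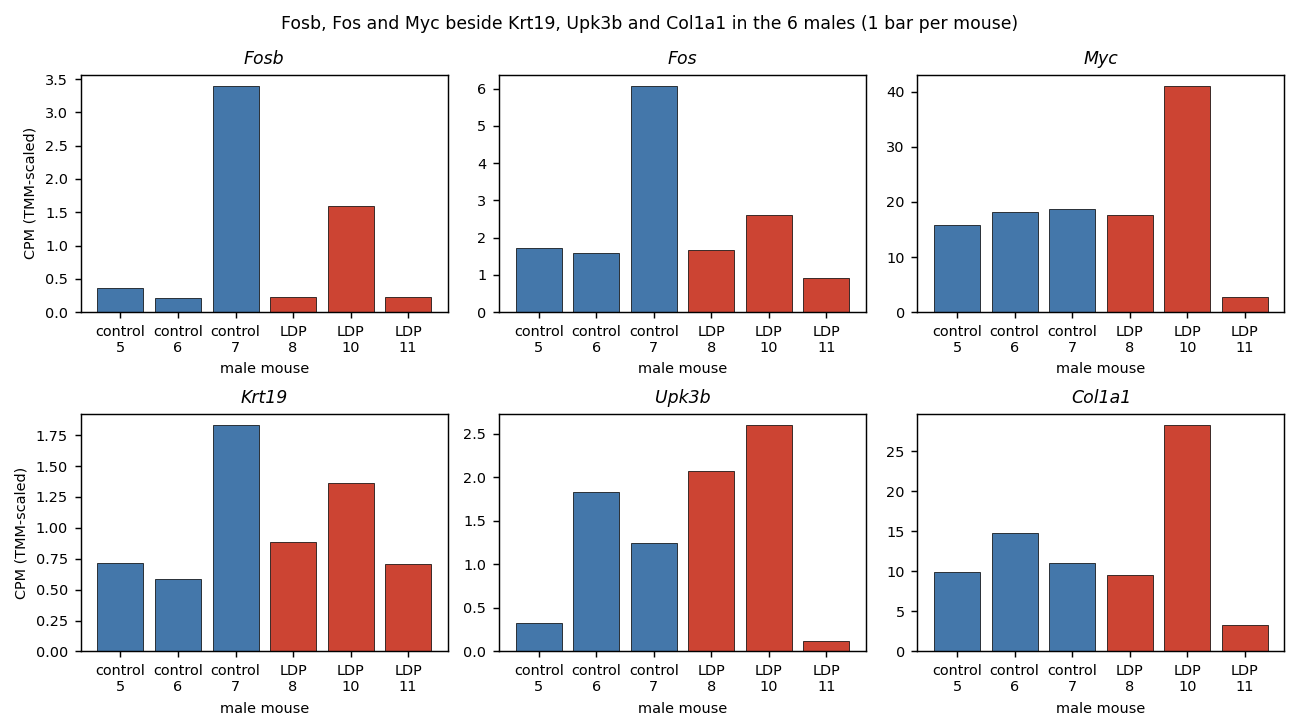
CPM in the 6 males, 1 bar per mouse (blue control, red LDP), for Fosb, Fos and Myc in the upper row and for Krt19, Upk3b and Col1a1 in the lower row. Control male 7 is highest for Fosb, Fos and Krt19, and LDP male 10 is highest and LDP male 11 lowest for Myc, Upk3b and Col1a1. Krt7, a cholangiocyte marker like Krt19 but not drawn, was lowest in control male 7. Of the mesothelium markers not drawn, Wt1 and Krt18 had the same extreme mice as Upk3b. Gpm6a and Lrrn4 were instead highest in LDP male 8, and Gpm6a, Lrrn4 and Msln were lowest in control male 5. Krt19 and Col1a1 are among the genes nearest to Fosb and Myc, so their likeness was built in.

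Levels of different members were compared per gene length, which the male table gives. In control males Junb had 11.4 ± 1.35 CPM per kilobase, Ier2 10.97 ± 1.27, Jund 7.94 ± 0.11 and Myc 6.45 ± 0.56. Jun followed with 3.44 ± 0.68 and Egr1 with 2.84 ± 1.05, and Fos (1.33 ± 1.087), Atf3 (0.63 ± 0.18), Ier3 (0.43 ± 0.03) and Fosb (0.35 ± 0.48) were lowest. In this order the ranges of the 3 mice overlapped between Junb and Ier2, between Jun, Egr1, Fos and Atf3, each with the next, and between Ier3 and Fosb, and the other neighbours were apart. The length given for Jund, 2878 bases, exceeds its span in GENCODE M21 (chr8:70698949-70700616). A shorter length would raise its value, so the place of Jund in this order is uncertain.

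Across the 4 groups of the female table, most members overlapped from each group to the next in the order of their means. For Atf3, the LDP females (2.67 ± 1.13 CPM) were apart from the next group, the LDP-microbiota recipients (1.33 ± 0.03), though the lowest LDP female (1.369) and the highest of these recipients (1.3685) were almost equal. For Egr1, LDP females (26.8 ± 20.1) and control females (35.5 ± 22.7) were apart from control recipients (5.33 ± 0.44) and LDP-microbiota recipients (4.997 ± 2.18). The Egr1 gap is between experiments that differ in strain and in rearing, which cannot be told apart. Fosb in LDP females (0.54 ± 0.25) was apart from control females (0.24 ± 0.09).

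Other genes of these pathways, in 7 lists, gave 0 genes past the adjusted threshold by edgeR in any comparison. List counts at an unadjusted p under 0.05 stand beside 5.23% of all genes in males, 4.51% in females and 5.11% in recipients. Of 15 AP-1 and ATF partners, 0 of 15 tested in males, 1 of 14 for females and 2 of 14 for recipients had an unadjusted p under 0.05, each lower. These were Jdp2, which represses AP-1, at 2.88 ± 0.09 CPM in LDP against 3.93 ± 0.79 in control females, and in recipients Mafg (24.7 ± 2.52 against 32.1 ± 3.79) and Fosl2 (6.03 ± 0.32 against 8.86 ± 2.99). Of 17 other immediate early transcription factors, 0 of 14 tested in males, 1 of 12 for females and 0 of 11 for recipients did so. The 1 was Klf6, at 17.0 ± 3.47 CPM in LDP females against 13.3 ± 1.18.

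Of 33 early effectors and feedback genes, 32 were tested in males, 31 in females and 30 in recipients, with 0, 3 and 2 at an unadjusted p under 0.05. Ctgf, a secreted matrix protein, stood at 6.60 ± 0.38 CPM in LDP females against 4.00 ± 1.21, a log2 difference of 0.71 (unadjusted p 0.0079), and at 6.35 ± 1.30 in LDP-microbiota recipients against 11.1 ± 4.07, a difference of -0.81 (0.0220). The other genes were Btg2 (15.8 ± 2.76 against 12.6 ± 0.96) and Sgk1 (29.96 ± 2.85 against 38.0 ± 7.04) in females and Zfp36l2, an RNA decay factor, in recipients (32.6 ± 3.29 against 48.6 ± 11.96). In males the gene of smallest p was Socs3, the feedback inhibitor of cytokine signalling, at 9.01 ± 3.45 against 14.9 ± 3.46 CPM (-0.72, unadjusted p 0.0583). Genes of both directions were thus in this list, whose median log2 difference was -0.02 in males, 0.11 in females and -0.10 in recipients.

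Upstream, 1 of 17 kinases and ternary complex factors had an unadjusted p under 0.05 in males (Map3k5, 55.1 ± 10.7 CPM against 85.2 ± 23.6), 0 in females and 1 in recipients (Map3k1, 10.8 ± 0.46 against 14.4 ± 1.61), both lower. The integrated stress response, in which ATF4 induces Atf3 and the gene of CHOP, had 0 of 17 tested genes at that level in males, 1 of 16 for females and 0 of 14 for recipients. The female gene was Nupr1, at 1.91 ± 0.64 CPM against 1.16 ± 0.27, and the list's median was -0.08, -0.12 and 0.19. In males Ddit3, which encodes CHOP, stood at 6.00 ± 1.41 against 7.91 ± 1.01 CPM (-0.40, unadjusted p 0.0511).

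Of 11 partners and antagonists of MYC, 0 of 11 tested in males, 1 of 10 for females and 2 of 10 for recipients had an unadjusted p under 0.05. They were Mycn, a paralog of Myc, at 1.06 ± 0.67 CPM in LDP females against 3.01 ± 1.53 in controls, and in recipients Mga (31.9 ± 5.75 against 47.7 ± 9.70) and Mycl1 (8.65 ± 3.19 against 12.7 ± 1.084), each lower. Of 15 Myc target genes, 0 in males, 0 in females and 1 in recipients did so, Nop58 of the ribosome assembly pathway, at 28.2 ± 7.47 against 21.03 ± 1.56 CPM. In recipients 13 of the 15 targets had a positive log2 difference, with a median of 0.18 beside -0.01 over all genes.

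The genes whose pattern over mice was most like that of Atf3 and Fos were sought in the 12 libraries of the female table, after the mean of each of the 4 groups was taken off, so that only spread within groups counted. Likeness was the root mean square difference of log2(CPM + 0.5), among 11951 genes whose mean reached 1 CPM. For Atf3, itself with a root mean square deviation of 0.29, the nearest were Olfml3 (0.161), Calml4 (0.164), Arrdc1 (0.165), LOC545261 (0.166) and Nol10 (0.169). Olfml3 encodes a secreted matrix protein and stood at 6.00, 3.72 and 6.15 CPM in LDP females 39, 52 and 54. LDP female 52 is lowest there, as for Atf3, but Olfml3 was chosen by this pattern, so the likeness is built in. For Fos (0.22) the nearest were Epsti1 (0.0728), Agtrap (0.0797), Gngt2 (0.0898), Fam78a (0.0947) and Ctla2b (0.0955). No other member was among these 10 genes. Fos had only 14 to 42 counts in these libraries, so counting error enters its pattern, and its share was not tested.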

How the data were processed

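RNA was extracted from liver with the RNeasy kit and sequenced from TruSeq v2 libraries, per the labels' protocols. The mm10 build, DESeq, featureCounts 1.4.3-p1, the aligner STAR 2.3.0e and HTSeq 0.5.3p9 appear in the submitters' processing notes; the roles of the counters are not given in the sources used here. Raw counts of each gene were deposited by the authors in a male table (6 columns, with gene lengths in bases) and a female table (12 columns); 0 columns were unmatched. Of 38924 male identifiers, 37607 (96.6%) matched a symbol in GENCODE M21 (GRCm38).

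Each comparison used its own 6 libraries. Genes passing filterByExpr (minimum count 10, total 15) were scaled by TMM; glmQLFit (robust) and glmQLFTest of edgeR 4.0.16 under R 4.3.3 gave p-values, adjusted by Benjamini-Hochberg over all genes tested (threshold 0.05). The SE is derived from the F statistic and is approximate. Differences of effects were fitted with 1 coefficient per group. DESeq2 1.42.0, other scalings and filters, a shared spread and leaving out each mouse were alternatives. Of each pathway list, genes past the threshold, and otherwise up to 3 of smallest p, could be named. Members, lists and tests were chosen with earlier results of these data known. Motifs were matched in RefSeq start regions (GRCm38.p6) on both strands.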

Additional observations from a re-analysis of the deposited data

Results flagged for a closer look

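The difference of Atf3 between treated and control mice was itself different between males and females, and this was flagged because one test of that difference passed. LDP minus control was -0.86 in males and 1.75 in females on the log2 scale, so the difference of effects was -2.63 (SE 0.55), with an adjusted p of 0.0483 by DESeq2 and 0.9999 by edgeR. Of the LDP females, 3 of 3 lay above every control female, and of the LDP males 2 of 3 lay below every control male. DESeq2 called it in 3 of 12 subsets with 1 mouse left out, with adjusted p from 1.4e-04 to 0.552.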

How the results depend on the processing

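No paired analysis was made, because the labels give no pairing of mice between the groups compared. Of values of single members under other settings, 340 kept direction and side of the threshold, 9 reversed and 2 newly passed, both Atf3 by DESeq2 (1.75 in females and -2.62 for males minus females). Reversed values lay near 0: Jun in males 0.00205 with upper quartile scaling and 0.00262 with genes of a mean under 1 CPM removed, Ier2 in females 0.0103 and in recipients 0.00560 with upper quartile scaling, Ier2 in females 0.0125 with library size only and in recipients 0.00134 with 12 libraries sharing the spread, Atf3 in recipients 0.00262 with upper quartile scaling, and the female minus recipient difference of Ier2 0.0913 with library size only and 0.00331 without a filter on low counts. Members called numbered 1 in females, and 1 for males against females, by DESeq2. Genes called in males were 42 by DESeq2, 2 without the filter and 0 with 12 libraries sharing the spread; in females 15 by DESeq2 and 1 without the filter; in recipients 28 by DESeq2, 2 without the filter, 0 with library size only and 3 with 12 libraries.

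With 1 mouse left out, 355 values kept direction and side, 55 reversed and 4 newly passed (Atf3 by DESeq2, an alternative chosen after seeing the data). Genes called ranged from 0 to 66 in males, 0 to 1 in females and 0 to 4 in recipients, and members called by edgeR stayed at 0. Log2 differences that reversed ranged, in males, from -0.35 to 0.13 for Egr1, -0.18 to 0.13 for Ier3, -1.27 to 0.0684 for Fos, -2.52 to 1.25 for Fosb, -0.20 to 0.17 for Jun, -0.12 to 0.0466 for Jund and -0.78 to 0.74 for Myc. In females they ranged from -0.37 to 0.21 for Ier3, -0.0708 to 0.23 for Jund, -1.18 to 0.22 for Egr1 and -0.0836 to 0.0915 for Ier2. In recipients they ranged from -0.12 to 0.12 for Ier2, -0.98 to 0.92 for Ier3, -0.23 to 0.26 for Atf3 and -0.51 to 0.12 for Egr1. For females minus recipients the ranges were -0.13 to 0.0937 for Ier2, -0.28 to 0.39 for Jun, -0.28 to 0.0376 for Jund, -1.11 to 0.29 for Egr1 and -0.97 to 0.94 for Ier3. For males minus females they were -3.73 to 0.0369 for Fosb, -0.21 to 3.70e-05 for Ier2, -0.21 to 0.37 for Ier3, -1.42 to 0.0977 for Myc, -0.24 to 0.0446 for Jund and -0.30 to 1.11 for Egr1. The results above name the mouse for Fos, Fosb and Myc in males, and for the other values the cause was not tested. Counts below about 20 in a female library limit Atf3, Fos, Fosb and Ier3.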

Other observations

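The genes nearest to Fosb and Myc over the 6 males were looked up after the spread of these members was seen, without taking off group means, so they describe these libraries only. For Fosb the nearest of 12055 genes was Fos (root mean square difference of log2(CPM + 0.5) 0.39), followed by Moxd1 (0.46), Krt19 (0.58), Scara5 (0.59) and Cyp21a1 (0.60). Moxd1 stood at 8.23 CPM in control male 7 and 7.46 in LDP male 10, and at 0.55 to 2.22 in the other males. For Myc the nearest were the transcription factor Foxq1 (0.28), the collagen gene Col1a1 (0.35), Gadd45g (0.46), Cish, which inhibits cytokine signalling (0.46), and the collagen gene Col3a1 (0.48). Foxq1 stood at 62.6 CPM in LDP male 10, 7.90 in LDP male 11 and 29.6 to 43.1 in the other males, and Col1a1 at 28.3, 3.35 and 9.51 to 14.7 CPM.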
